A study of Mus musculus with 30 samples.

Results

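The experiment described here asked what a single injection of bromocriptine before bright light did to the transcripts of the mouse neural retina. It consists of 6 of the 30 libraries of the series. Of these, 3 were from mice given 2-Bromo-α-ergocryptine methanesulfonate (bromocriptine, BRM) before light. The other 3 were from mice given only DMSO, the solvent, before light. All mice carried deletions of both Abca4 and Rdh8 (Abca4-/-Rdh8-/-, C57BL/6J background, males and females, 4 to 6 weeks old), the controls included. Drug or DMSO was injected into the peritoneum 30 min before white light of 10000 lux for 30 min. The neural retina was taken one day later. The sample records used here hold these settings and times for the BRM libraries but not for the 3 light libraries, where they are assumed. The other groups of the same experiment, 3 libraries each, were DMSO with no light, and light after metoprolol (MTP), tamsulosin (TAM) or doxazosin (DOX). A second experiment, run and analysed separately, had no light, light, light after BRM, MTP and TAM together (BMT), and light after MTP, DOX and BRM together (MDB). No group received a drug without light, and the labels used here give no doses.

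Bromocriptine is an ergot derivative that activates D2-type dopamine receptors, which couple to inhibitory G proteins and lower cyclic AMP. Metoprolol is a blocker of beta-1 adrenergic receptors, and both tamsulosin and doxazosin are blockers of the alpha-1 type. ABCA4, a transporter of the photoreceptor outer segment, and RDH8, a retinol dehydrogenase, clear all-trans-retinal after bright light, and mice lacking both lose photoreceptors after such exposure. Injured photoreceptors are known to be followed by a reaction of Müller glia, the radial glia of the retina, which raise GFAP and respond to cytokines that signal through gp130 and STAT3.

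Gene totals were 18.2 to 22.2 M counts per library in the BRM and light groups, and 12.0 to 22.2 M over the 18 libraries of the experiment. Levels are CPM (counts relative to the library total, per M) after TMM scaling, given as the mean ± SD of n = 3 libraries. They are not divided by transcript length, so they compare libraries and not genes. The rod marker Gnat1 was among the listed retinal markers found in all 9 libraries with no drug or with BRM, and transcripts of both deleted genes were counted there too (Abca4 320 to 821 CPM, Rdh8 19.4 to 40.1 CPM). The labels do not give the deleted parts, so these levels check nothing. The labels do not say that libraries came from different animals, so p-values measure the spread between libraries. In bulk tissue, fewer cells of a type and less RNA per cell cannot be told apart.

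Retinas given BRM before light differed from light alone in 2341 of 16249 genes tested, at an adjusted p under 0.05 (edgeR's quasi-likelihood test, Benjamini-Hochberg). Of these, 1151 (7.08%) were higher with BRM and 1190 (7.32%) were lower. Libraries of the BRM and light groups did not overlap for 39.5% of tested genes, with all BRM libraries above in 19% and below in 20.5%. The median absolute log2 fold change was 0.59 for the higher and 0.58 for the lower genes, while 363 of the lower genes (30.5%) and 165 of the higher ones (14.3%) differed at least 2-fold. Counts of calls depended on single libraries: without BRM 2 there were 449 higher and 529 lower genes, and without light 2 there were 431 and 479. They were also more than 1.5 times smaller in both directions without BRM 3 (722 and 614) or light 1 (640 and 614), and for lower genes without BRM 1 (668).

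Among called genes with a mean log2 CPM of 1 or more and no overlap of libraries, the largest fall was that of Prss56 (ENSMUSG00000036480, chr1:87183313-87188405, GRCm38.p3, as for all gene spans here). It encodes a trypsin-like serine protease of Müller glia. Its level was 133, 169 and 189 CPM in the light libraries and 2.89, 2.40 and 6.57 CPM with BRM, beside 0.805, 2.18 and 2.42 CPM with no light. Every BRM library lay far below every light library and near the no-light libraries. Prss56 was 41.4-fold lower with BRM (log2 fold change -5.36 ± 0.99 SE, adjusted p = 0.0036). By the same limits, the largest rises were those of Glb1l3 (ENSMUSG00000031966, chr9:26817953-26860823), a member of the beta-galactosidase-like family, and BC055402, followed by Hdc, the enzyme that makes histamine. Glb1l3 was at 1.15, 0.660 and 0.953 CPM after light and at 7.47, 11.8 and 8.72 CPM with BRM, a 10.1-fold difference (log2 3.32 ± 0.43, adjusted p = 0.00063). BC055402 was 5.98-fold and Hdc 5.90-fold higher with BRM, in each case with no overlap of libraries. Fndc1 was 4.37-fold higher. Gm7336, Gm12671 and Gm10359 ranked between Hdc and Fndc1, but are near-identical copies whose counts are uncertain. The calls of Prss56, Glb1l3, BC055402, Hdc and Fndc1 held when each of the 6 libraries was left out in turn.

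**Figure D1:**
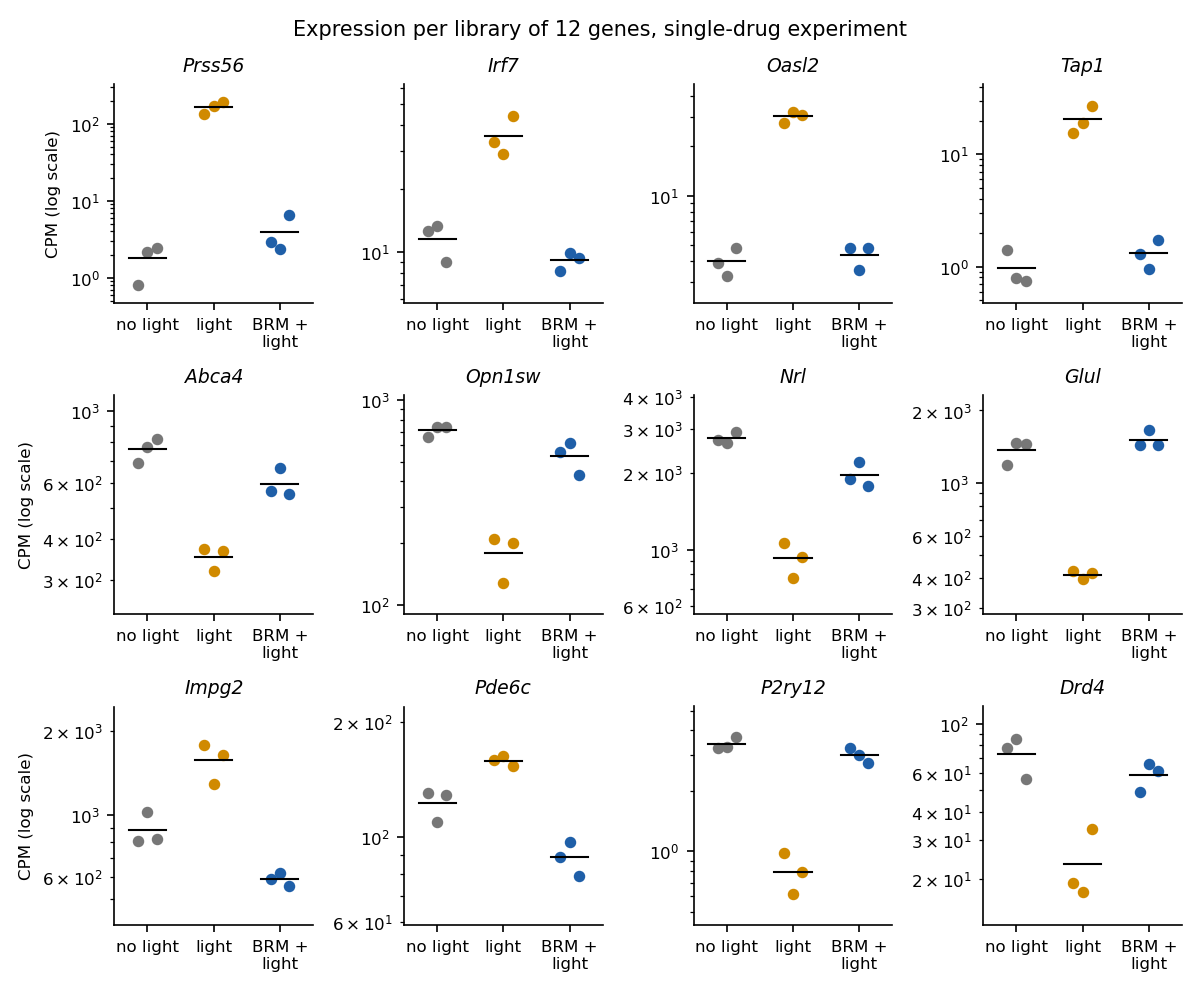
Levels of 12 genes in each library (CPM, log axis) for no light (grey), light (orange) and BRM before light (blue), with points for libraries and a line for the group mean. Prss56, Irf7, Oasl2 and Tap1 were high after light and low with BRM, Abca4, Opn1sw, Nrl, Glul, P2ry12 and Drd4 the other way round, and Impg2 and Pde6c were lower with BRM than after light.

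Interferon-stimulated genes were lower with BRM almost throughout. Of 30 listed genes tested, 26 were lower with BRM and 0 higher, against 7.32% of all genes called lower, and the count was 24 to 27 when a library was left out. The median log2 fold change of the list was -2.45, beside 0.0006 over all genes tested. The list's median against no light was 2.66 for light and 0.19 for BRM before light. Promoters of some of these genes are shown because a shared short motif, the interferon-stimulated response element (ISRE), is known to bind factors of the IRF family. The genes shown were picked by hand, and only stretches that hold the motif were printed. Each stretch holds the 200 bases before the start in RefSeq (GRCm38.p6), with GAAANNGAAA or its reverse complement in capitals, 5′ to 3′ along the gene.
Irgm1: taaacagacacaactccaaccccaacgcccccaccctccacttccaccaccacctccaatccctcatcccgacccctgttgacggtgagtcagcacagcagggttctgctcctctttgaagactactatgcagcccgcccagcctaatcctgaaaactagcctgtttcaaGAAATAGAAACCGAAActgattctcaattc
Irgm2: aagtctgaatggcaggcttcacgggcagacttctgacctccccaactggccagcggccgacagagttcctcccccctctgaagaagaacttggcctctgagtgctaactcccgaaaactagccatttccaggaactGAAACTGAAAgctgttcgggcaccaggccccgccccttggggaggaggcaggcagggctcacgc
Igtp: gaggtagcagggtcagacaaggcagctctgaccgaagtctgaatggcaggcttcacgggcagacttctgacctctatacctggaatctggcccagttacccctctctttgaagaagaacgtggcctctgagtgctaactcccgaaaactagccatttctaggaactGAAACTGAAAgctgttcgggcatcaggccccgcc
Ifit1: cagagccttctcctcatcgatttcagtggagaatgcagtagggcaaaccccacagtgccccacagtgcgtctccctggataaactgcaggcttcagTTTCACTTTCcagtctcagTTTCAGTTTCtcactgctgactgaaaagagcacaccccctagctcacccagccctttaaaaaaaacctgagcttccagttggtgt
Irgm1 lies at chr11:48871421-48871620 (minus strand). Irgm2 lies at chr11:58214777-58214976 (plus strand). Igtp lies at chr11:58199356-58199555 (plus strand). Ifit1 lies at chr19:34640689-34640888 (plus strand). In Irgm1, 2 copies that overlap begin at -30 and -24 from the start. The copies begin at -64 in Irgm2 and -34 in Igtp, and at -104 and -85 in Ifit1, where both read on the other strand. In the 250 bases searched on both strands, 11 of 24 interferon genes with a listed promoter (45.8%) held the motif, against 359 of 11482 tested genes (3.13%) and 978 of 32851 promoters searched (2.98%). Among called genes it was found for 51 of 893 lower with BRM (5.71%) and 19 of 831 higher (2.29%). A match is a description of the letters, not a site.

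Irgm1, which encodes an interferon-induced GTPase of cell-intrinsic immunity, was at 32.7, 38.9 and 36.8 CPM after light and at 6.02, 2.52 and 2.70 CPM with BRM. The groups did not overlap, and the BRM libraries spanned the no-light range of 2.65 to 3.37 CPM. Irgm1 was 9.65-fold lower with BRM (log2 -3.26 ± 0.37, adjusted p = 0.00031). Its relatives Irgm2 (16.4-fold) and Igtp (8.90-fold) were lower as well, but their annotated spans overlap on the same strand, so counts could be shared between them. Ifit1, which binds foreign RNA, fell from 11.4 ± 1.48 CPM after light to 2.30 ± 1.35 CPM with BRM, with no overlap of libraries. Oasl2, a 2'-5' oligoadenylate synthetase-like protein, was at 27.7, 32.3 and 30.9 CPM after light and at 4.82, 3.52 and 4.80 CPM with BRM. Its 6.92-fold difference had one of the smallest adjusted p-values of the list (log2 -2.79 ± 0.22, adjusted p = 1.25e-05).

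Transcription factors of the pathway were lower as well. Irf7, which amplifies the interferon response, was at 33.0, 29.1 and 43.9 CPM after light and at 8.14, 9.95 and 9.42 CPM with BRM. The BRM libraries were all low, and Irf7 was 3.85-fold lower (log2 -1.95 ± 0.19, adjusted p = 9.28e-05), and its BRM mean of 9.17 ± 0.929 CPM lay beside 11.6 ± 2.30 CPM with no light. Irf1, an early interferon-gamma target, was 7.14-fold lower (log2 -2.83 ± 0.36, adjusted p = 0.00054). Usp18, which damps interferon receptor signalling, was 12.1-fold lower and Rnf213, a large ubiquitin ligase, 4.73-fold lower.

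Genes of MHC class I antigen presentation were lower too, in 14 of 16 tested members against 7.32% of all genes, and none was higher. Their median log2 fold change was -0.89. Nlrc5 (ENSMUSG00000074151, chr8:94472763-94527272), the transactivator of class I genes, was at 10.6, 15.1 and 14.7 CPM after light and at 0.530, 0.279 and 1.07 CPM with BRM, a 21.5-fold difference (log2 -4.39 ± 0.72, adjusted p = 0.0019). Tap1, a subunit of the peptide transporter, was 15.5-fold lower (20.5 ± 5.86 against 1.33 ± 0.388 CPM). The immunoproteasome subunits Psmb8 and Psmb9 were 4.99-fold and 4.95-fold lower, and the heavy chain H2-D1 was 3.37-fold lower. The annotated ends of Psmb9 and Tap1 overlap, and class I heavy chains are near-identical paralogs, so counts of these genes could be shared. The count of 14 was 8 without BRM 2 or light 2, and 9 without BRM 3.

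Receptors and signal carriers of the gp130 pathway fell for 8 of 21 tested members, and 2 rose (Cntfr, a CNTF receptor subunit, and Stat5b). Over all genes the shares were 7.32% lower and 7.08% higher, so the 2 rises were near the share. The median log2 fold change was -1.10, and the light and BRM medians against no light were 1.4 and 0.30. Osmr (ENSMUSG00000022146, chr15:6813577-6874969), the oncostatin M receptor subunit, was at 128, 132 and 153 CPM after light and at 16.2, 9.67 and 24.8 CPM with BRM. All 3 BRM libraries were low, and the difference was 8.17-fold (log2 -3.03 ± 0.63, adjusted p = 0.0066). Il6ra, the interleukin-6 receptor, was 9.37-fold lower, and Socs2, a feedback inhibitor, 2.80-fold lower. These 3 genes kept their calls whichever library was left out. For Lif, the gp130 ligand known to be made by injured retina, levels were 7.49, 11.8 and 9.61 CPM after light and 1.20, 0.615 and 1.4 CPM with BRM. Lif was 8.99-fold lower (log2 -3.15 ± 0.84, adjusted p = 0.022), but lost its call without light 2 or any one BRM library (adjusted p up to 0.097). Calls of Cntfr and Stat5b were also lost when one of several libraries was left out (adjusted p up to 0.188 and 0.121). The 8 lower calls became 5 without BRM 1 and 4 without BRM 2 or light 2.

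Of 21 tested genes of gliosis and injury, 14 were lower with BRM and 0 higher, against 7.32% of all genes called lower. The median log2 fold change was -2.09. The list's median against no light was 2.86 for light and 1.14 for BRM. Gfap (ENSMUSG00000020932, chr11:102887336-102900912), the intermediate filament of reactive Müller glia, was at 264, 285 and 301 CPM after light and at 70.9, 38.5 and 75 CPM with BRM. With no light it was at 32.2, 19.1 and 21.1 CPM, so the BRM libraries lay above the no-light libraries and below the light libraries without overlap. Gfap was 4.61-fold lower than after light (log2 -2.20 ± 0.60, adjusted p = 0.024), and its call was lost when any light or BRM library other than light 3 was left out (adjusted p up to 0.108). A2m, a protease inhibitor, was 10.4-fold lower (338 ± 98.5 against 32.6 ± 11.1 CPM) and Fgf2, a survival factor for photoreceptors, 3.79-fold lower, and both calls held whichever library was left out. Edn2, the endothelin released by injured photoreceptors, was at 28.6, 32.3 and 30.2 CPM after light and at 3.13, 4.86 and 5.45 CPM with BRM (log2 -2.76 ± 0.70, adjusted p = 0.017). The libraries of Edn2 did not overlap, but its call was lost without light 2 or any one BRM library (adjusted p up to 0.068). The acute-phase gene Serpina3n was 15.8-fold lower (adjusted p = 0.033), a call lost whichever library was left out (adjusted p up to 0.130). The count of 14 was 8 without BRM 1 or BRM 3, 5 without BRM 2 and 7 without light 2.

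Genes for the resting tasks of Müller glia did not move one way, with a median of -0.07. Of 19 tested members, 4 were higher and 2 lower, beside 7.08% and 7.32% of all genes. The 2 lower calls were near that share. Glul (ENSMUSG00000026473, chr1:153899944-153909723), the glutamine synthetase that recycles the transmitter glutamate, was at 425, 394 and 419 CPM after light and at 1434, 1654 and 1432 CPM with BRM. The BRM libraries were all high, beside 1182, 1467 and 1449 CPM with no light, and the difference was 3.65-fold (log2 1.87 ± 0.27, adjusted p = 0.0012). Spc25 (2.78-fold) and the transporter gene Abca8a (2.00-fold) were higher as well. Crym, which encodes a thyroid hormone-binding protein, went the other way, from 305 ± 48.4 CPM after light to 38.7 ± 5.10 CPM with BRM (7.88-fold lower, adjusted p = 0.0019). The other called members were the lipid carrier gene Apoe, which was higher (log2 0.93), and the glutamate transporter gene Slc1a3, which was lower (log2 -0.67). Both calls were lost when one of several libraries was left out (adjusted p up to 0.072 and 0.108).

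Immediate early and AP-1 genes respond within minutes to hours of a stimulus. They were lower in 13 of 25 tested members and higher in 0, against 7.32% of all genes called lower. Atf3, a stress-induced factor, was at 38.7, 43.6 and 36.1 CPM after light and at 5.54, 4.47 and 6.29 CPM with BRM. Its BRM libraries were all low, and the difference was 7.26-fold (log2 -2.86 ± 0.58, adjusted p = 0.0055). Myc, a growth regulator, was 8.28-fold lower (adjusted p = 0.0050). The count of 13 was 5 without BRM 1 or light 2, 4 without BRM 2, 6 without light 1 and 8 without BRM 3.

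In the NF-kappaB list, 5 of 14 tested genes were lower and 1 was higher, beside 7.32% and 7.08% of all genes. The 1 higher call was near that share. The lower genes included Bcl3, a nuclear partner of NF-kappaB, at 7.26 ± 0.573 CPM after light and 0.433 ± 0.0422 CPM with BRM (16.8-fold, adjusted p = 0.0093). The higher gene was Tnfaip3, which encodes the NF-kappaB inhibitor A20, at 142, 115 and 129 CPM after light and 296, 352 and 278 CPM with BRM. Its 3 BRM libraries were all above the light libraries and below the no-light libraries (415, 415 and 431 CPM), and the difference was 2.40-fold (log2 1.26 ± 0.18, adjusted p = 0.0012). The 5 lower calls were 2 without BRM 2, BRM 3 or light 2 and 3 without any other library of the 2 groups.

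Among 21 tested genes of cell death and p53, 7 were lower and 1 higher, beside 7.32% and 7.08% of all genes. Ripk1, a kinase of inflammatory cell death, was 2.77-fold lower (24.1 ± 1.5 against 8.69 ± 0.676 CPM, adjusted p = 0.0090). The 7 lower calls were 1 without BRM 2, 3 without light 2, and 4 without BRM 1, BRM 3 or light 1. Of 12 tested chemokine and leukocyte adhesion genes, 7 were lower and 0 higher, beside the same shares of all genes. Csf1, the growth factor of microglia and macrophages, was 3.15-fold lower and Vcam1, an adhesion molecule, 3.07-fold lower. That count was 2 without BRM 2, 3 without light 2, and 4 without BRM 3 or light 1.

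**Figure D2:**
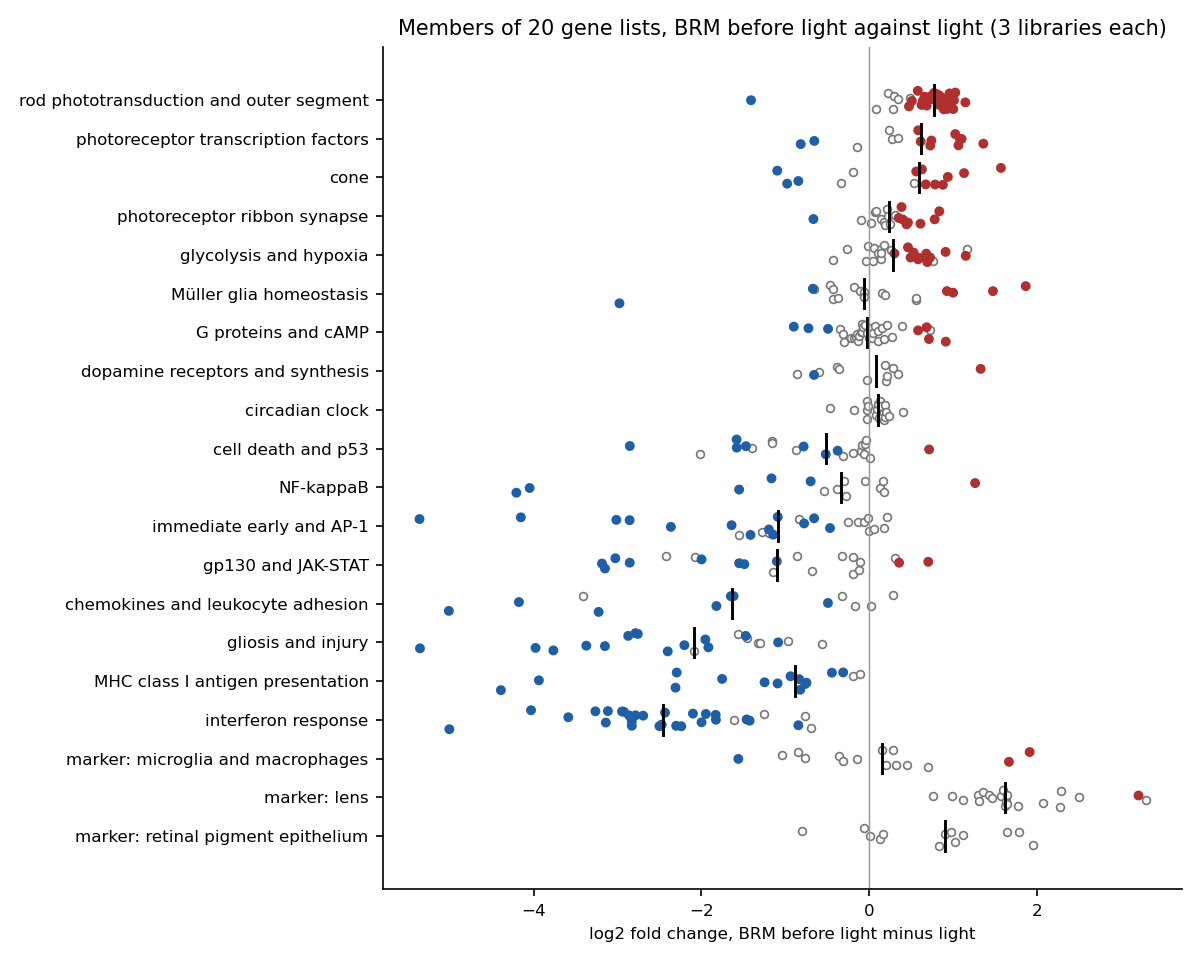
Log2 fold change of BRM before light minus light for the tested members of 20 gene lists. Filled points passed the test (red higher, blue lower), open points did not, and a black bar marks the median, which was -2.45 for the interferon list and 0.77 for the rod list.

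Photoreceptor genes were higher with BRM than after light. Of 33 rod phototransduction and outer segment genes, 26 were higher and 1 lower, against 7.08% of all genes called higher, with a median log2 fold change of 0.77. The rod list's median against no light was -1.14 for light and -0.43 for BRM. Promoters of 4 members of the photoreceptor lists are shown with TAATCC or its reverse complement in capitals. This motif is known to bind the photoreceptor factor CRX. The 4 were picked by hand, and only stretches that hold the motif were printed. Each again holds 200 bases before the RefSeq start (GRCm38.p6), 5′ to 3′ along the gene.
Abca4: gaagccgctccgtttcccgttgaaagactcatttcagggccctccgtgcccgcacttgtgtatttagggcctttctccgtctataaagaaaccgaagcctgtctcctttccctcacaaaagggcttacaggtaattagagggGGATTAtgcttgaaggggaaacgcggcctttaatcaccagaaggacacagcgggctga
Gucy2f: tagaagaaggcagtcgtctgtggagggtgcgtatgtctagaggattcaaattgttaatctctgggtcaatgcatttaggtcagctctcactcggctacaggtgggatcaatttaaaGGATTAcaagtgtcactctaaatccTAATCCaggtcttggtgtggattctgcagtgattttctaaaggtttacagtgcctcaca
Samd11: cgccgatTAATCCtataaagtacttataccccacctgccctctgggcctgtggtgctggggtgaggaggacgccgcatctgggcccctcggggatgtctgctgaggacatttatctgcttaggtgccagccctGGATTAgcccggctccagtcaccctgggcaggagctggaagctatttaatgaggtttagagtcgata
Gnat2: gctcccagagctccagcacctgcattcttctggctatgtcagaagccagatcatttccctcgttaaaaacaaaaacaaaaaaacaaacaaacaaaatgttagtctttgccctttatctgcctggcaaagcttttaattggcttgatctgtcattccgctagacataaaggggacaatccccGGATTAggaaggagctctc
Abca4 lies at chr3:122044260-122044459 (plus strand). Gucy2f lies at chrX:142196937-142197136 (minus strand). Samd11 lies at chr4:156255343-156255542 (minus strand). Gnat2 lies at chr3:108092866-108093065 (plus strand). The motif begins at -58 in Abca4, at -84 and -59 in Gucy2f, at -193 and -67 in Samd11, and at -19 in Gnat2. Within the 250 bases searched on both strands it was found for 10 of 24 rod genes (41.7%), 5 of 13 photoreceptor transcription factors (38.5%) and 2 of 9 cone genes (22.2%). The share was 6.53% over tested genes, 10.3% over genes called higher with BRM and 7.05% over those called lower, and 6.25% over all promoters searched. None of the 3 photoreceptor lists had a promoter with GAAANNGAAA.

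Gnat1, the rod transducin subunit, was at 6705, 4984 and 6761 CPM after light and at 11347, 13315 and 10506 CPM with BRM. With no light it was at 16602, 16077 and 17453 CPM, so the BRM libraries lay between the other groups and overlapped neither. Gnat1 was 1.91-fold higher with BRM than after light (log2 0.93 ± 0.17, adjusted p = 0.0036). Abca4 was 1.68-fold higher and Gucy2f, a photoreceptor guanylate cyclase, 1.85-fold. The 1 lower member of the list was Impg2 (ENSMUSG00000035270, chr16:56204313-56273756), a proteoglycan of the matrix around photoreceptors. It was at 1769, 1291 and 1641 CPM after light and at 592, 622 and 558 CPM with BRM (2.65-fold lower, log2 -1.41 ± 0.22, adjusted p = 0.0018). All 3 BRM libraries of Impg2 were also below the no-light libraries, at 805 to 1020 CPM. The count of 26 was 17 without BRM 2 or light 2, while the call of Impg2 held whichever library was left out.

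Transcription factors of photoreceptors were higher in 9 of 15 members and lower in 2, beside 7.08% and 7.32% of all genes. Nrl (ENSMUSG00000040632, chr14:55518978-55524981), which sets rod fate, was at 1067, 774 and 937 CPM after light and 1902, 2209 and 1778 CPM with BRM, a 2.12-fold difference (log2 1.08 ± 0.18, adjusted p = 0.0019). Nr2e3, which represses cone genes in rods, was 2.57-fold higher, Samd11 2.15-fold and Esrrb 2.04-fold, with no overlap between libraries. The lower members were Neurod1 (log2 -0.82 ± 0.16, adjusted p = 0.0048), a proneural factor kept in photoreceptors, and Samd7. Neurod1 was at 603 ± 33.9 CPM after light, 343 ± 12.5 CPM with BRM and 366 ± 6.43 CPM with no light. The call of Samd7 (log2 -0.65) was lost whichever library was left out (adjusted p up to 0.199).

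Of 14 cone genes, 8 were higher and 3 lower, beside 7.08% and 7.32% of all genes. Opn1sw (ENSMUSG00000058831, chr6:29376671-29388468), the short-wavelength cone opsin, was at 210, 128 and 200 CPM after light and at 554, 615 and 431 CPM with BRM. The BRM libraries were all high, below the no-light range of 659 to 740 CPM, and the difference was 2.97-fold (log2 1.57 ± 0.25, adjusted p = 0.0018). Opn1mw, the middle-wavelength opsin, was 1.92-fold higher and Gnat2, the cone transducin subunit, 2.19-fold. The lower genes were Pde6c, the cone phosphodiesterase, Gnb3, a cone transducin beta subunit, and Cnnm4, a magnesium transporter. Pde6c (ENSMUSG00000024992, chr19:38132781-38183947) was at 159, 163 and 154 CPM after light and 89.0, 97.2 and 79.4 CPM with BRM (1.79-fold lower, adjusted p = 0.00086), below the no-light libraries at 110 to 131 CPM. Gnb3 was 1.97-fold lower (463 ± 61.2 against 235 ± 7.32 CPM), beside 250 ± 5.64 CPM with no light. Cnnm4 (log2 -1.09) lost its call without BRM 1, BRM 2 or light 1 (adjusted p up to 0.064). The 8 higher calls were 5 without BRM 2.

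At the photoreceptor ribbon synapse, 8 of 20 genes were higher and 1 lower, beside 7.08% and 7.32% of all genes. Slc17a7, the vesicular glutamate transporter, was at 808 ± 112 CPM after light and 1390 ± 162 CPM with BRM (1.72-fold, adjusted p = 0.0055). Cplx3, a complexin of ribbon synapses, was 1.36-fold higher, from 178 ± 3.96 to 242 ± 15.5 CPM. Pcdh15, a cadherin linked to combined deafness and blindness, was the 1 lower member (1.58-fold, adjusted p = 0.0031). The 8 calls were 3 without BRM 2 or light 2 and 5 without light 1 or light 3.

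Glycolysis and hypoxia genes were higher in 11 of 26 members and lower in 0, against 7.08% of all genes called higher. Hk2, the hexokinase prominent in photoreceptors, was 1.88-fold higher (279 ± 32.7 against 525 ± 77.7 CPM, adjusted p = 0.0019). Slc16a3, a lactate exporter, was 2.23-fold higher and Pkm, pyruvate kinase, 1.60-fold. The 11 calls were 4 without BRM 2 or light 2. None of the 13 mitochondrially encoded genes was called, nor were 24 of 25 nuclear genes of the respiratory chain (1 higher).

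Of the receptors on which bromocriptine acts, Drd4 was the 1 dopamine receptor gene called. Drd4 (ENSMUSG00000025496, chr7:141292006-141294999), a D2-type receptor of photoreceptors, was at 19.1, 17.4 and 33.5 CPM after light, 49.0, 66.1 and 61.2 CPM with BRM, and 77.8, 84.9 and 56.2 CPM with no light. Light libraries were lowest without overlap, while BRM and no-light libraries overlapped. It was 2.52-fold higher with BRM than after light (log2 1.33 ± 0.32, adjusted p = 0.014), and the call was lost without BRM 2, light 1 or light 2 (adjusted p up to 0.075). Its mean was 50.3 ± 15.2 CPM with MTP, 43.6 ± 11.9 CPM with TAM and 72.6 ± 28.6 CPM with DOX, and no direct contrast with BRM passed the test (adjusted p = 0.789, 0.471 and 0.955). In the second experiment, Drd4 had a log2 difference of -0.31 between light and no light (unadjusted p = 0.206, edgeR's quasi-likelihood test). Its log2 difference between BMT and light there was -0.23, so neither the fall with light nor the rise with BRM was seen with BMT and its controls.

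Drd2, the other D2-type receptor gene tested, was at 8.0, 9.71 and 8.74 CPM after light and at 11.5, 10.5 and 10.2 CPM with BRM. These libraries did not overlap, but the difference missed the test (log2 0.28 ± 0.18, adjusted p = 0.333), as did that of the D1-type gene Drd1, listed as Drd1a (log2 -0.38 ± 0.16, adjusted p = 0.128). Drd5, also D1-type, was at 2.74 CPM after light and 2.69 CPM with BRM (adjusted p = 0.970). Th, the rate-limiting enzyme of dopamine synthesis, was at 1.97 ± 0.552 and 2.25 ± 0.537 CPM (adjusted p = 0.767). Maoa, which degrades dopamine, was the 1 gene of the list called lower, from 35.3 ± 2.90 CPM after light to 22.4 ± 2.79 CPM with BRM (log2 -0.66 ± 0.14, adjusted p = 0.0073), beside 21.4 ± 2.25 CPM with no light. In all, 1 of 12 tested genes of dopamine receptors and synthesis was called in each direction, near the 7.08% and 7.32% over all genes.

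Of the pathway through which these receptors are known to signal, 4 of 35 genes for G proteins and cyclic AMP were higher and 3 lower, near the 7.08% and 7.32% of all genes, with a median log2 fold change of -0.02. Adcy6 (ENSMUSG00000022994, chr15:98589994-98607633) was the 1 adenylyl cyclase gene called of 8 tested, at 62.0, 52.6 and 61.6 CPM after light and 106, 120 and 106 CPM with BRM. The BRM libraries were all above, at 1.89-fold (log2 0.91 ± 0.14, adjusted p = 0.0015), beside 128 ± 6.63 CPM with no light. Adcy1, a calcium-stimulated cyclase, did not pass the test (598 ± 64.9 against 541 ± 29.0 CPM, adjusted p = 0.446). Pde8a, a cyclic AMP phosphodiesterase, was 1.61-fold higher, and Creb1, the cyclic AMP response factor, was 1.4-fold lower (adjusted p = 0.0024 and 0.0061). Of 15 other monoamine receptor genes that bromocriptine is known to bind or that the other drugs block, 1 was higher and 0 lower. The 1 call, Adrb1 (log2 0.57 ± 0.15, adjusted p = 0.022), was near the 7.08% of all genes called higher. Adrb1 encodes the target of metoprolol, and its call was lost without BRM 1, BRM 2, light 2 or light 3 (adjusted p up to 0.091). Adra1a, a target of tamsulosin and doxazosin, was at 1.79 ± 0.534 and 1.60 ± 0.124 CPM (adjusted p = 0.856).

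Markers of other cell types were examined for the same 6 libraries. Lens markers moved with the groups: summed over 21 genes they were 12146 to 15098 CPM after light and 19882 to 54201 CPM with BRM, without overlap, and 4007 to 25197 CPM with no light. The lens list had a median log2 fold change of 1.62, with 21 of 21 above 0 and 1 called, Lgsn, a lens protein (7.02, 15.4 and 8.62 CPM after light, 6.50, 19.1 and 261 CPM with BRM). That call rested on BRM 3 and was lost without it or any light library (adjusted p up to 0.779). With a lens-fibre score (mean log2 CPM of 6 lens genes) as a covariate, 1191 genes were higher and 1252 lower. That score did not overlap between light (5.37 to 5.50) and BRM (6.16 to 7.68). Among these 6 libraries the covariate therefore largely follows the group, and the fit cannot fully separate lens from drug. Iris, ciliary body and muscle markers summed to 28.7 to 41.5 CPM after light and 45.4 to 198 CPM with BRM, with 0 of 10 tested genes called. Retinal pigment epithelium markers overlapped (452 to 909 against 523 to 1352 CPM), with 0 of 13 called. Their part in the results was not tested beyond that covariate.

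Microglial markers overlapped as a sum (75.4 to 83.0 CPM after light, 71.3 to 79.8 CPM with BRM). Of 15 tested, 2 were higher, 1 was lower and 12 were not called, beside 7.08% and 7.32% of all genes. The list's median log2 fold change was 0.15, and the called members moved in opposite directions. P2ry12 (ENSMUSG00000036353, chr3:59216271-59262831), the ADP receptor of resting microglia, was at 0.979, 0.613 and 0.787 CPM after light and 3.28, 3.02 and 2.75 CPM with BRM, beside 3.27 to 3.69 CPM with no light. All BRM libraries were above the light libraries, at 3.80-fold (log2 1.91 ± 0.35, adjusted p = 0.0032), and Tmem119, another marker of resting microglia, was 3.22-fold higher. Cd68, a lysosomal protein of active phagocytes, was lower (3.24 ± 0.441 against 1.09 ± 0.479 CPM, adjusted p = 0.040), a call lost whichever library was left out (adjusted p up to 0.155). Among inner retinal neurons, Pcp2 of bipolar cells was 2.00-fold higher, Sept4 of horizontal cells 1.55-fold higher, and Gap43, a growth-cone protein of ganglion cells, 1.76-fold lower. Kdr, the endothelial VEGF receptor, was 2.09-fold lower (210 ± 67.0 against 101 ± 3.22 CPM, adjusted p = 0.0061). Of 15 tested endothelial and pericyte genes, 2 were lower, Kdr and Rgs5, and 1 was higher, Vtn (log2 0.78). The call of Vtn was lost without BRM 2 or light 2 (adjusted p up to 0.069), and that of Rgs5 whichever library was left out (adjusted p up to 0.149). Of 14 bipolar, 14 amacrine, 8 horizontal and 12 ganglion cell markers, 1, 1, 2 and 1 were called. The list medians were 0.23, 0.06, 0.20 and -0.11, in the same order. These few calls, like the endothelial ones, stand beside 7.08% of all genes higher and 7.32% lower. The horizontal cell markers went both ways, with 1 higher and 1 lower.

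Against no light, 0 of 16249 genes (0%) passed the test in retinas given BRM before light, although 2535 had an unadjusted p under 0.05. DESeq2 called 381 genes and limma voom 1 in the same comparison. The absence of calls does not show that the groups were alike. BRM libraries lay between light and no light in a score of light-responsive genes, defined from the second experiment as the mean log2 CPM of raised minus lowered genes and given as a description. The score was 0.756, 1.22 and 1.10 after light, -1.98, -2.27 and -2.31 with no light, and -1.34, -1.95 and -1.4 with BRM. All 3 BRM libraries lay above the no-light libraries, BRM 2 narrowly, and below the light libraries. The difference between BRM and light means was -2.59.

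**Figure D3:**
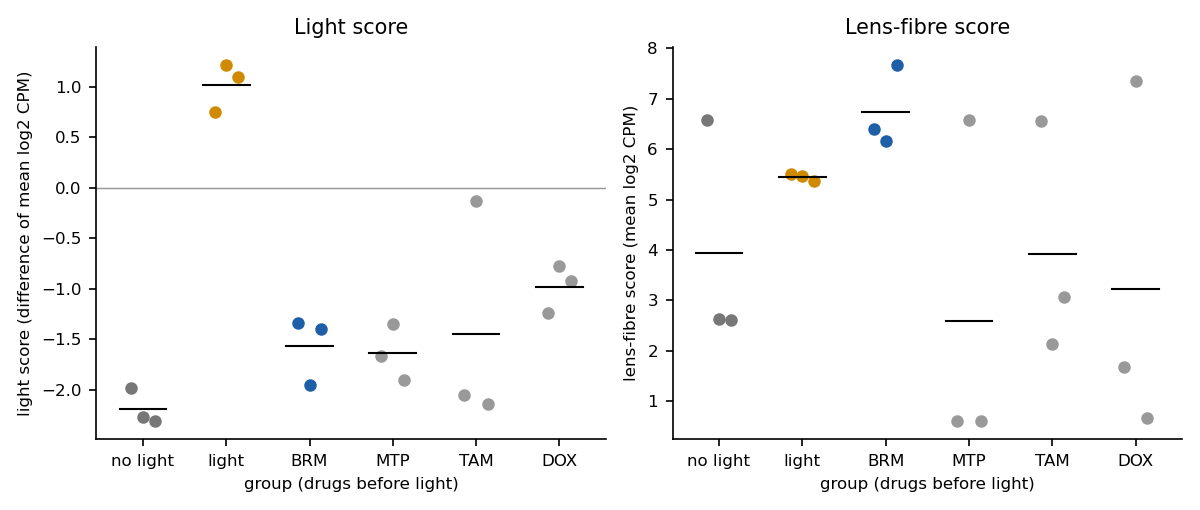
Light score (left) and lens-fibre score (right), both on a log2 CPM scale, for each library of the 6 groups of the single-drug experiment, with a line at the group mean. The light libraries lie at 0.756 to 1.22 and the BRM libraries at -1.95 to -1.34 on the left. On the right the BRM libraries lie at 6.16 to 7.68, above the light libraries at 5.37 to 5.50.

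Genes that responded to light in the second experiment share no library with the comparison of BRM and light. In that experiment 559 genes (3.49% of 16007) were at least 2-fold higher after light than with no light, and 101 (0.631%) at least 2-fold lower. Of the 554 raised genes tested here, 328 (59.2%) were lower with BRM than after light and 0 higher, with a median log2 fold change of -1.19. Of the 101 lowered genes, 67 (66.3%) were higher with BRM and 0 lower, with a median of 1.13. Against no light, the medians with BRM were 0.33 for the raised and -0.38 for the lowered genes. The 328 calls became 179 without BRM 2 and 201 without light 2. Across 15868 genes, which are not independent replicates, the light difference of the second experiment and the difference between BRM and light had a Pearson r of -0.537, given as a description.

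**Figure D4:**
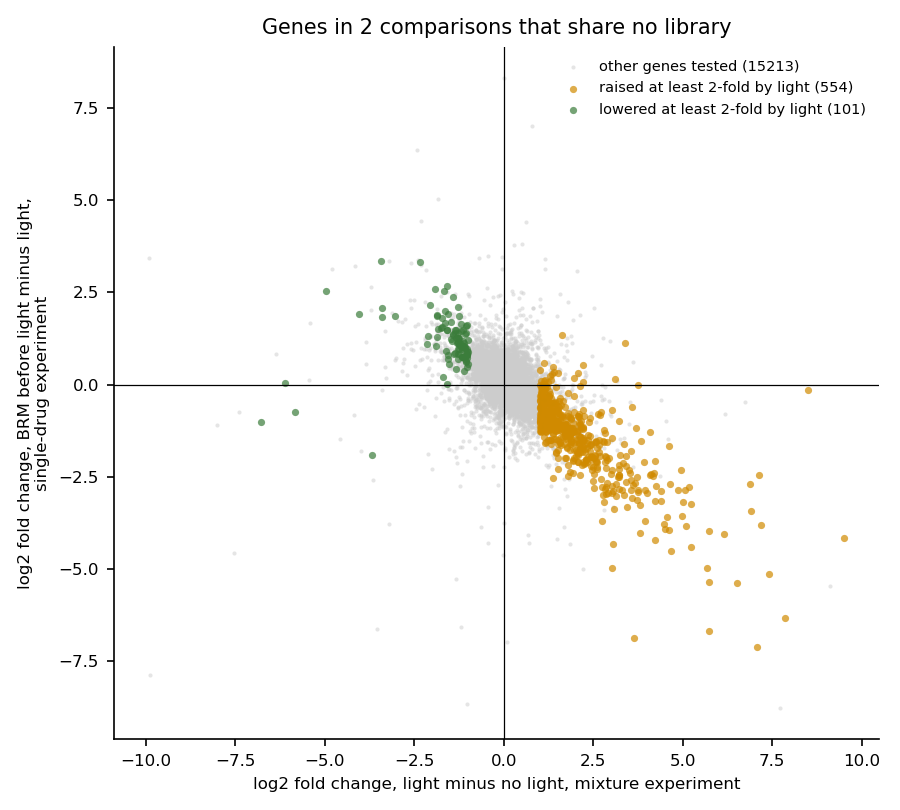
Each point is a gene. The x axis is the log2 fold change of light minus no light in the second experiment, and the y axis is that of BRM before light minus light. Of 554 genes raised by light (orange) 534 lie below 0 on the y axis, and of 101 lowered genes (green) 98 lie above 0, with 15213 other genes in grey.

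The mixtures that contained BRM were compared with their own light libraries, which again are separate from those of the single drug. BMT before light gave 7.96% of 16007 genes higher and 9.78% lower than light. It shared 445 higher genes with BRM alone (38.7% of those called with BRM, 34.9% of those called with BMT) and 573 lower genes (48.4% and 36.7%). MDB before light gave 3.7% higher and 5.93% lower. It shared 361 higher genes (31.4% of the BRM calls, 60.9% of the MDB calls) and 598 lower genes (50.5% and 63.3%). Opposite calls were found for 31 genes with BMT, all higher with BRM and lower with BMT, and for 0 with MDB. Of the 31, 1 was at least 2-fold higher with BRM and 0 were called for light in the second experiment. Cacna1h, a T-type calcium channel gene picked from these 31 after their values were seen, was at 36.0 ± 7.33 CPM after light and 67.0 ± 8.66 CPM with BRM. In the second experiment it was at 46.7 ± 5.39 CPM after light, 33.6 ± 4.84 CPM with BMT and 60.1 ± 10.0 CPM with MDB.

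The single drugs were set side by side before the same light, at doses the labels do not give. Matched doses are therefore unknown. Of 16249 genes, 0 (0%) differed between BRM and MTP, 0 (0%) between BRM and DOX, and 18 (0.111%) between BRM and TAM. At an unadjusted p under 0.05 there were 1589, 833 and 3174 genes, and DESeq2 called 12, 0 and 759. No member of the 37 lists was among the calls. Relative to the shared light libraries, the interferon list had medians of -2.45 with BRM, -2.54 with MTP, -2.05 with TAM and -2.06 with DOX. The gliosis list had medians of -2.09, -2.17, -1.82 and -1.45, and the rod list 0.77, 0.86, 0.96 and 0.88, in the same order.

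Between BRM and TAM, 5 genes were higher with BRM and 13 lower. Ddah2, which breaks down an inhibitor of nitric oxide synthesis, was at 16.8 ± 1.98 CPM with BRM and 6.72 ± 1.44 CPM with TAM (log2 1.32 ± 0.22, adjusted p = 0.043). Mmp12, the macrophage elastase, was at 3.50 ± 0.703 and 8.41 ± 0.584 CPM (log2 -1.27 ± 0.21, adjusted p = 0.043). Bst1, an ectoenzyme that makes cyclic ADP-ribose, was at 11.4 ± 0.612 and 22.3 ± 2.78 CPM (log2 -0.97 ± 0.14, adjusted p = 0.043). These 18 calls became 0 without any one BRM library or TAM 3 and 5 without TAM 1, the library with the lowest depth, 12.0 M counts. The light score of TAM 2 was -0.132, against -2.05 and -2.14 in the other TAM libraries. Without TAM 2 there were 15 calls.

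The authors' deposited table of changed transcripts lists 622 transcripts, of which 301 have a log2 fold change above 0 for BRM relative to light and 321 below 0. The gene was called here for 526 of them, and the sign in the authors' deposited table was that of the gene here for 599. That table gives -5.47 for Prss56, 1.85 for Glul and 1.35 for Drd4. These values were computed by the authors from the same libraries and are no second measurement.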

How the data were processed

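Poly(A) RNA of neural retina was sequenced with a stranded kit. Per the submitters' processing notes, the tools were Trimmomatic, Bowtie2, TopHat2, eXpress, edgeR and limma, with genome GRCm38.p3. Their versions: not given in the sources used here. Deposited by the authors were estimated counts per transcript (eXpress, not normalized), FPKM values normalized by the authors, and log2 fold changes against light. Their deposited table also holds adjusted p-values of a test over all groups.

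Estimated counts of 102906 transcripts were summed over 42439 gene identifiers and rounded. Genes passing filterByExpr were scaled by TMM, and the 6 groups of the single-drug experiment were fitted together with edgeR 4.0.16 in R 4.3.3, with a quasi-likelihood test, two-sided. The second experiment was fitted by itself. Calls needed an adjusted p (Benjamini-Hochberg) below 0.05, and SE is the absolute log2 fold change over the square root of F. There were 12 comparisons. Depth per library was 12.0 to 25.8 M counts, which limits low genes most. The fitting was tested on simulated data.

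The members, the 37 gene lists and the tests were chosen with earlier results of these data known. Named genes were the 15 largest rises and 15 largest falls among called genes without overlap whose mean log2 CPM reached 1, up to 4 members per list with the smallest adjusted p, all dopamine receptor and adenylyl cyclase genes, and 9 retinal genes always given. For BRM against each other drug they were the 3 largest rises and 3 largest falls. Irf1, Ifit1, H2-D1, Gnat1, Neurod1, Gnb3, Samd7, Cnnm4, Apoe, Slc1a3, Cntfr, Stat5b, Th, Adra1a and Cacna1h were named after their values were seen. Gene spans come from the deposited count table (GRCm38.p3), as the outermost transcript ends of each gene, and names from that table unless stated. Promoters come from RefSeq, with those on chromosome 18 left out of the search and of all its counts. Entries then remained for 11482 of 16183 tested gene symbols. Alternatives were RLE scaling, no filter, DESeq2 1.42.0, limma 3.58.1 voom, a replicate block, the 2 groups alone, a lens-fibre covariate, the authors' FPKM with a pseudocount of 1 or 0.1, and each replicate left out. Some genes are not reported here.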

Additional observations from a re-analysis of the deposited data

Results flagged for a closer look

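The difference between 2 drugs given before the same light was tested directly. Between BRM and TAM, 18 genes passed the test, 5 higher and 13 lower with BRM. Their number was 0 without any one BRM library.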

How the results depend on the processing

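Leaving out 1 replicate gave 431 to 1511 genes higher with BRM than after light and 479 to 980 lower, and 179 to 271 and 48 to 61 for the genes raised and lowered by light in the second experiment. With the authors' FPKM plus 0.1 per transcript 750 were lower. With no minimum fold change, 625 raised genes were lower with BRM, 447 lowered genes were higher, and the light score difference was -1.32. Against no light, 1 gene was called with no filter, 381 by DESeq2 and 1 by limma voom. Against MTP, DESeq2 called 12. Against TAM, 0 genes were called with no filter, 759 by DESeq2, 0 by limma voom and 0 with the replicate block, and 0 to 15 with a replicate left out. Cacna1f, a calcium channel of the photoreceptor synapse, changed sign to -0.085 with the authors' FPKM plus 0.1. Fewer libraries enter when one is left out; otherwise the cause was not tested. The samples share only a replicate number: same-numbered deviations correlated at -0.0045, -0.027 and -0.011. A fit with the replicate number as a block gave 1042 higher and 1090 lower genes than light. Of 119 called genes named by rule, 82 kept the call in all count-based settings and 37 lost it without 1 library. Low counts limit genes near 1 CPM.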

Other observations

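Among stress and metabolic lists, calls between BRM and light went in both directions or were few, beside 7.08% of all genes higher and 7.32% lower. Of 14 complement genes 2 were lower, C3 (3.95-fold) and Cfi (6.58-fold), which encode the central component and a regulator, and 0 were higher. Of 12 heat shock genes 3 were higher, among them Hspa1a, an inducible chaperone (1.98-fold, adjusted p = 0.0057, edgeR), and 2 were lower. Hspa1a and Hspa1b are near-identical, so their counts could be shared. The higher heat shock calls were 1 without BRM 3, light 1 or light 2, and the lower ones were 1 without BRM 3 and 0 without BRM 1, BRM 2, light 1 or light 2. The integrated stress response list had 1 of 14 higher and 3 lower, among them Asns, asparagine synthetase (1.34-fold lower). Its higher call was lost without BRM 2 or light 2. NRF2 targets had 2 of 14 lower, and 0 without BRM 2 or light 2. Cholesterol synthesis had 3 of 18 lower, 1 without BRM 3 or light 1 and 0 without BRM 2 or light 2. Of 18 circadian clock genes, 0 were called.

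Some genes differed with BRM while light did not pass an unadjusted p of 0.05 in the second experiment, which does not show that they did not respond to light there. With calls of at least 2-fold, a mean log2 CPM of 1 or more and no overlap of libraries, 32 such genes were higher and 7 lower. Before the limits of level, overlap and light response, 165 genes were higher and 363 lower at least 2-fold with BRM. For light in the second experiment, 26.4% of all 16007 genes tested had an unadjusted p under 0.05. Whrn, a scaffold protein of the photoreceptor cilium, was at 33.8 CPM after light and 81.1 CPM with BRM (log2 1.26 ± 0.23, adjusted p = 0.0031), beside 81.5 CPM with no light. Its log2 difference between light and no light was -1.27 in this experiment and -0.15 in the second. Crocc, which encodes the ciliary rootlet protein, was 1.38 ± 0.27 higher on the log2 scale, with light differences of -1.48 and -0.10. Prr5l had a log2 difference of -1.88 ± 0.29 with BRM, and its light differences of 1.44 and 0.88 were both above 0. The light differences of this experiment used the same light libraries as the comparison with BRM, so they are not independent of it. In the second experiment the log2 difference between BMT and light was 0.09 for Whrn, -0.20 for Crocc and -0.35 for Prr5l. These genes were picked after their values were seen.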
